A study of Mus musculus with 2 samples.

Results

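Collagens are the triple-helical proteins of the extracellular matrix, and their genes were described here in the optic nerve of mice 12 days after birth. The members are the genes whose symbol reads Col, a type number, the letter a and a chain number, which gave 44 of 23950 symbols measured by RNA-seq. The study compared 1 library of control nerves with 1 library of nerves labelled Hdac3 cKO, both on a mixed strain background. The control animals were Hdac3 f/+; Olig1-cre, and the cKO animals were Hdac3 f/f; Olig1-cre. All animals therefore carried the Cre recombinase, expressed from the Olig1 gene of the oligodendrocyte lineage, and the control animals carried 1 Hdac3 allele that it can delete. Nerves were frozen whole, so that their connective tissue sheath, vessels, glia and axons were read together, and the sources used here do not say how many animals a library holds.

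A collagen molecule is made of 3 chains wound around each other, either copies of 1 chain or chains of several genes of a type. Fibrillar collagens pack into the fibrils that give sheaths and tendons their strength, and FACIT collagens (fibril-associated collagens with interrupted triple helices) sit on the surface of these fibrils. Type 4 collagens form the network of basement membranes, and types 15 and 18 lie where basement membranes meet the surrounding matrix. Type 6 collagen forms beaded filaments near cells. In the optic nerve most collagen lies in the meningeal sheath, in its septa and around blood vessels.

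Values are FPKM, the fragments assigned to a gene per length of transcript and scaled to a total of fragments, as the authors deposited them, each with an interval given by 2 bounds. With 1 library a group there is no replicate check and no test, and each difference below is between these libraries. The read depth is unknown, and the deposited FPKM summed to 441867 in control and 557861 in cKO. The targeted gene, Hdac3, was at 36.4 FPKM in the control library and 38.0 in the cKO library, a log2 difference of 0.06 that turned to -0.26 when the libraries were scaled to the same sum. Whole-gene values therefore leave the genotype labels unchecked, and "cKO" means the library labelled so. As a check of the tissue, the 10 oligodendrocyte markers summed to 27450 FPKM in control and to 3657 in cKO, and the 9 astrocyte markers to 1107 and 1871.

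Most collagen genes that could be compared had more transcript per length in the cKO library, and 1 gene, Col20a1, went far the other way. Of the 44 genes, 34 reached an FPKM of 1 in at least 1 library and were counted, and Col25a1 is the only one of them that reached this level in the cKO library alone. A gene was called higher or lower when the difference of log2(FPKM + 1) reached 2-fold and the intervals deposited for the libraries lay apart. By this rule 12 of the 34 collagens were higher and 1 was lower, where the same rule called 4.73% of all 14154 counted genes higher and 4.51% lower. The difference was above 0 for 29 of the 34 collagens (85.3%) and for 61.4% of all counted genes. The median log2 difference (cKO minus control) was 0.83 for the collagens and 0.12 for all counted genes. Intervals alone, with no fold asked, were separate for 28 collagens with the higher value in cKO and for 4 with the higher value in control, against 38.4% and 22.5% of all counted genes. In whole nerve, more or fewer cells of a type and more or less RNA per cell cannot be told apart, and the markers of the cell types are given with their values after the collagens.

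The calls depend on how the libraries are put on 1 scale. Scaling to the same sum left 3 collagens higher (Col13a1, Col15a1 and Col26a1) and 4 lower (Col2a1, Col9a3, Col11a2 and Col20a1), where the rule called 1.54% of all counted genes higher and 6.89% lower, while 28 of the 34 differences were still above 0. Centring on the median of all counted genes left 6 higher and 2 lower, against 3.1% and 5.38% of all genes. In 8 other settings of pseudocount, scaling, minimum level and choice of entry, Col15a1, Col26a1 and Col20a1 had the same call each time. Only pseudocount and scaling could change these calls, since each gene reached 5 FPKM in a library and 0 collagens had several entries. Col3a1 and Col6a2 lost theirs after scaling to the same sum, and Col13a1 with a pseudocount of 5. The calls of Col1a2, Col4a5, Col5a2, Col6a1, Col8a2, Col9a2 and Col12a1 were lost in several of these settings, always including the same sum. The intervals do not contain the spread between animals. The FPKM also lay outside its own interval for 5 of the 34 collagens in control and for 16 in cKO, so the intervals do not fully describe the estimates either.

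**Figure D1:**
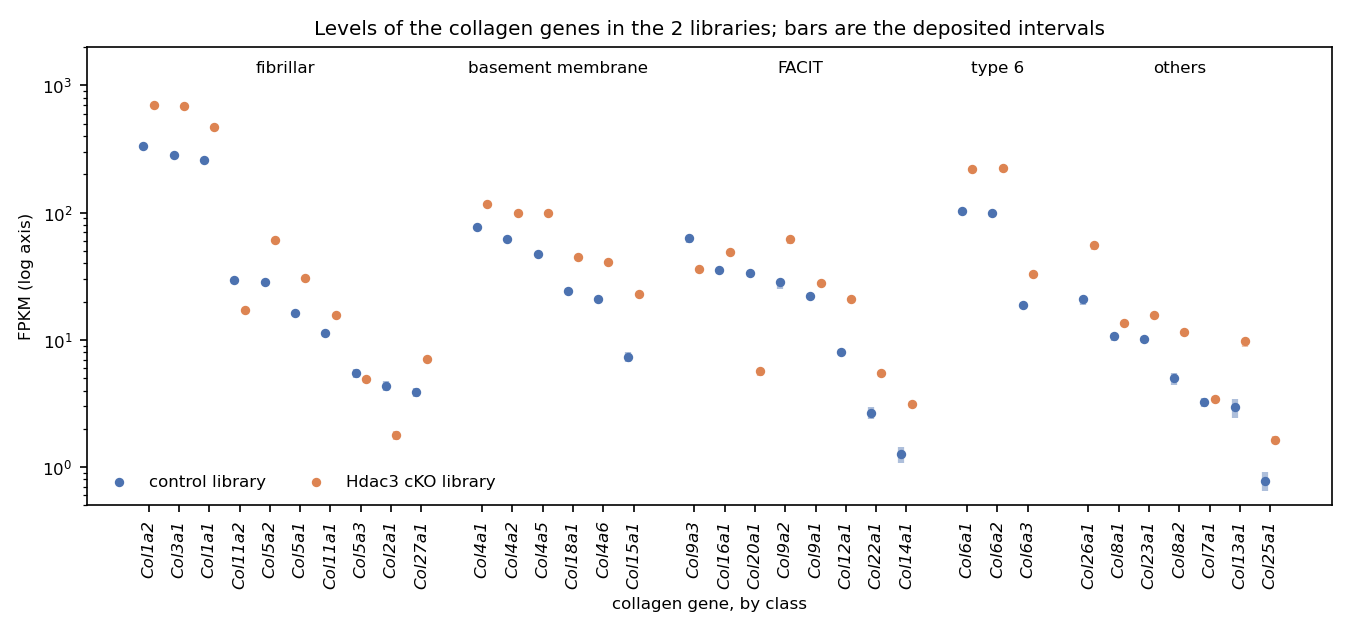
FPKM of the 34 counted collagen genes (log axis) in the control library (blue) and the Hdac3 cKO library (orange), by class and in order of the control level; points are the deposited FPKM and bars the deposited intervals, many of them shorter than the point. Col1a2, Col3a1 and Col1a1 stand above all others in both libraries, and the Col20a1 points lie farthest apart, at 33.6 and 5.70 FPKM.

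Fibrillar collagens made up most of the collagen signal. The 11 genes summed to 978.2 FPKM in control and at 1995 in cKO, which is 58.0% and 62.0% of the FPKM of all 44 collagens. Col1a2 and Col1a1 encode the chains of type 1 collagen, the main fibril of sheath, skin and tendon. Col1a2 (chromosome 6, 4455696 to 4491543, mm9) was at 334.8 FPKM in control, with an interval of 319.0 to 326.5, and at 703.7 in cKO, with an interval of 673.7 to 680.0. It was the most abundant collagen in both libraries, ranking 169 in control and 74 in cKO among all genes, and was higher in cKO by the rule (log2 1.07). Col1a1 (chromosome 11, 94797583 to 94813170) was at 259.3 and 469.0 FPKM, a log2 difference of 0.85 that stayed under 2-fold. Its intervals, 245.8 to 253.4 and 446.9 to 452.1, did not overlap.

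Col3a1, whose product joins 3 identical chains and runs with type 1 in vessels and soft tissue, showed a larger difference than either type 1 chain. It was at 284.8 FPKM in control, with an interval of 272.2 to 279.7, and at 684.4 in cKO, with an interval of 657.3 to 663.3 (log2 1.26). Col3a1, Col1a1 and Col1a2 together held 52.1% of all collagen FPKM in control and 57.7% in cKO. Type 5 collagen starts fibrils and limits their width. Of its chains Col5a2 was higher by the rule, at 28.5 and 60.7 FPKM (log2 1.07), Col5a1 was at 16.3 and 30.9 (log2 0.88), and Col5a3 was at 5.51 and 4.93 with overlapping intervals (log2 -0.13). Col5a3 thus did not show the higher cKO values of Col5a1 and Col5a2.

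Among the remaining counted fibrillar genes, the values of Col2a1 and Col11a2 were lower in cKO, while those of Col11a1 and Col27a1 were higher. Col2a1, the main fibrillar collagen of cartilage and of the vitreous, was at 4.38 FPKM in control (interval 3.99 to 4.77) and 1.79 in cKO (interval 1.64 to 1.93). Col11a2, a chain of type 11 collagen, was at 29.4 FPKM in control (interval 27.7 to 29.9) and 17.2 in cKO (interval 16.2 to 17.2). Both had separate intervals with the lower value in cKO, at log2 differences of -0.95 and -0.74, short of the 2-fold rule on the deposited scale. Its partner Col11a1 was at 11.3 and 15.6 FPKM (log2 0.43), on the other side of 0. Col27a1, a minor fibrillar collagen, was at 3.87 and 7.01 FPKM (log2 0.72).

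Type 6 collagen gave the class with the highest median difference, 1.11 over 3 counted genes. This order depends on the minimum level. Without a minimum FPKM the type 6 median was 0.45 over 6 genes, under the 0.76 of basement membrane collagens. Col6a1 (chromosome 10, 76171536 to 76188789) was at 102.2 FPKM in control, with an interval of 95.4 to 100.4, and at 221.0 in cKO, with an interval of 208.4 to 212.2 (log2 1.11). Col6a2, which lies 85.4 kb from it, was at 99.4 and 222.7 FPKM (log2 1.16). Both were higher by the rule, which called 4.73% of all counted genes higher, and neither was after scaling to the same sum. The levels of Col6a1 and Col6a2 matched closely within each library. Col6a3, the long partner chain of the same molecule, was at 18.9 and 33.1 FPKM (log2 0.78), under 2-fold. The other chains of the type, Col6a4, Col6a5 and Col6a6, were at or under 0.316 FPKM in both libraries and were not counted. These paralogs lie side by side on chromosome 9, so reads of like stretches may be split between them.

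All 6 counted genes of basement membranes had higher values in the cKO library with separate intervals, and 2 of them met the 2-fold rule. The shares of all counted genes were 38.4% and 4.73%. Scaling to the same sum left 1 of the 6 higher, against 1.54% of all counted genes. The median log2 difference of the 6 genes was 0.89. Col4a1 and Col4a2 encode the chains found in nearly every basement membrane, vessels included. Col4a1 (chromosome 8, 11198422 to 11312826) was at 76.9 FPKM in control and at 117.7 in cKO (log2 0.61), and Col4a2 was at 62.2 and 98.6 (log2 0.66). Neither reached 2-fold.

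Col4a5 and Col4a6, another pair of type 4 chains, differed by more. Col4a5 (chromosome X, 137909961 to 138123778) was at 47.3 FPKM in control, with an interval of 46.2 to 49.1, and at 98.4 in cKO, with an interval of 98.6 to 101.1 (log2 1.04). It was higher by the rule on the deposited scale and under 2-fold after scaling to the same upper quartile (log2 0.97), centring on the median of all genes (log2 0.92) and scaling to the same sum (log2 0.71). Col4a6 was at 20.9 and 40.7 FPKM (log2 0.93). Col4a3 and Col4a4, best known from the kidney filter, were at or under 0.514 FPKM in both libraries.

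Col15a1 showed the largest upward difference of the counted collagens with a pseudocount of 1, while with a pseudocount of 0.1 Col13a1 (log2 1.70) lay above it (log2 1.63). It was at 7.37 FPKM in control, with an interval of 6.73 to 7.97, and at 23.0 in cKO, with an interval of 21.8 to 22.9 (log2 1.52), above 98.4% of all counted genes. Type 15 collagen links basement membranes to nearby fibrils around vessels, nerves and muscle. Col18a1, its close relative and the source of the fragment endostatin, was at 24.4 and 45.0 FPKM (log2 0.86).

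The type 4 genes lie head to head in pairs, and both members of each counted pair showed like differences. In the deposited coordinates (mm9) 2 bases separate Col4a1 from Col4a2 and 1.34 kb separate Col4a6 from Col4a5. RefSeq places the starts of Col4a1 and Col4a2 21 bases apart on opposite strands (GRCm38.p6), and their promoter windows share 78 bases. The window of Col4a1 is shown because its gene lies so close to a partner with a like difference, next to the promoter windows of the most abundant collagen and of the one called lower. Each window runs from 250 bases before the RefSeq start to 50 bases after it, 5′ to 3′ on the strand of the named gene. Capitals mark matches on either strand to CCAAT (the CCAAT box), TATAAA (the TATA box), GGGCGG (the GC box) and ACAAAG (a core bound by Sox proteins), and none of the marked matches overlap.
Col4a1, chr8:11312777-11313076, minus strand: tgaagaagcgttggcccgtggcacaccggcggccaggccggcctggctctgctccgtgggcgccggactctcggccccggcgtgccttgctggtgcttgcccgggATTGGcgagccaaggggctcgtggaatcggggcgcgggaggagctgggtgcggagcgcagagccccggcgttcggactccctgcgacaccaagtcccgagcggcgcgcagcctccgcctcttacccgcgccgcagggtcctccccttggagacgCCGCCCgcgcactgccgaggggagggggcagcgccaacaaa
Col1a2, chr6:4505368-4505667, plus strand: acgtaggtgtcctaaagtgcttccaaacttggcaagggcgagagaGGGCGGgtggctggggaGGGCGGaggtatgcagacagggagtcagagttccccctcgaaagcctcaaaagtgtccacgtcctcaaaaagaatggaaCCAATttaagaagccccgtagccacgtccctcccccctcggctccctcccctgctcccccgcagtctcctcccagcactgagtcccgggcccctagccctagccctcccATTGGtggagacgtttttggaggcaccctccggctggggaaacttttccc
Col20a1, chr2:180986285-180986584, plus strand: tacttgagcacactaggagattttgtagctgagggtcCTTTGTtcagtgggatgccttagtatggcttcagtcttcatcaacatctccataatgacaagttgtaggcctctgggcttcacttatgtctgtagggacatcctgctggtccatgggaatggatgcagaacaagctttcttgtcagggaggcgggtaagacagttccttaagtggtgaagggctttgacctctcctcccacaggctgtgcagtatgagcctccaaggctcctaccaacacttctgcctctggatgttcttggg

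These windows differ in their bases. G and C made up 74.0% of the Col4a1 window and 61.0% of the Col1a2 window, and less of the Col20a1 window. The Col1a2 window holds 2 CCAAT and 2 GGGCGG matches, the Col4a1 window 1 of each, and the Col20a1 window 1 ACAAAG match and none of the other motifs. Over the 38 windows that RefSeq gives for 35 of the 44 collagens, GGGCGG was found in 23 (60.5%), against 35.7% of all 32851 windows. CCAAT was found in 13 (34.2%, against 37.4%), TATAAA in 5 (13.2%, against 13.6%) and ACAAAG in 5 (13.2%, against 18.7%). Of the 10 windows of collagens called higher, 6 hold GGGCGG and 2 hold CCAAT, where of the 18 windows of counted collagens with no call 14 hold GGGCGG and 9 hold CCAAT. Such matches describe letters in a window, not bound sites.

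FACIT collagens were the class with the widest spread, from the lowest difference of any collagen to differences above 2-fold the other way. Their sum was 194.1 FPKM in control and at 210.2 in cKO, and their share of all collagen FPKM was 11.5% and 6.53%. Col20a1 (chromosome 2, 180721239 to 180752245), a FACIT collagen of little-known function, was at 33.6 FPKM in control, with an interval of 31.1 to 33.8. In the cKO library it was at 5.70 FPKM, with an interval of 5.22 to 5.90, a log2 difference of -2.37. Of all counted genes, 0.657% had a lower difference. It was the only collagen called lower on the deposited scale, and was lower in each other setting of pseudocount and scaling.

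Type 9 collagen, which coats type 2 fibrils in cartilage as a molecule of 1 chain from each of 3 genes, did not move as a unit. Col9a1 was at 22.2 FPKM in control and at 28.1 in cKO (log2 0.33). Col9a2 was at 28.3 FPKM in control, with an interval of 25.2 to 28.5, and at 61.6 in cKO, with an interval of 56.2 to 58.9, higher by the rule (log2 1.10). Col9a3 was at 62.8 FPKM in control, with an interval of 58.1 to 62.9, and at 36.3 in cKO, with an interval of 33.8 to 36.0 (log2 -0.77). The most abundant chain in control was therefore Col9a3 and in cKO Col9a2. The deposited locus of Col9a3 overlaps that of Tcfl5, a gene at 1.16 and 0.491 FPKM.

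Among the remaining FACIT collagens, Col12a1 was higher by the rule, with a log2 difference of 1.29. Col12a1 was at 8.07 FPKM in control (interval 7.68 to 8.47) and 21.1 in cKO (interval 20.5 to 21.3). Col14a1, its relative in tendon and dermis, was at 1.26 and 3.15 FPKM (log2 0.88), and Col22a1, a collagen of tissue junctions such as those of muscle with tendon, was at 2.68 and 5.47 (log2 0.81). The pseudocount of 1 lowers the differences of both, whose plain ratios were 2.49 and 2.04. Col16a1 was at 35.1 and 48.7 FPKM (log2 0.46). Col19a1 was under 0.05 FPKM in both libraries and was not counted.

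Among the remaining types 3 of 7 counted genes were higher by the rule, and 2 after scaling to the same sum. The shares of all counted genes were 4.73% and 1.54%. Col26a1, a small secreted collagen, was at 21.1 FPKM in control (interval 18.7 to 21.5) and 55.8 in cKO (interval 50.8 to 53.3), a log2 difference of 1.36. Col13a1, a membrane-spanning collagen known from the nerve-muscle synapse, was at 2.96 FPKM in control (interval 2.45 to 3.46) and 9.81 in cKO (interval 8.81 to 9.81), a log2 difference of 1.45. Its plain ratio of 3.32 was the highest of the counted collagens, and with a pseudocount of 5 it fell short of 2-fold. Col8a2, a chain of the short network collagen of vessel walls and of the cornea, was at 4.98 and 11.6 FPKM (log2 1.08). Its partner Col8a1 was at 10.7 and 13.6 FPKM (log2 0.32).

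Other membrane-spanning collagens gave smaller differences. Col23a1 was at 10.2 FPKM in control and at 15.7 in cKO (log2 0.58), and Col25a1, a collagen of neurons found in amyloid plaques, was at 0.781 and 1.65 (log2 0.57). Col7a1, the collagen of the fibrils that anchor skin, was at 3.23 and 3.46 FPKM with overlapping intervals (log2 0.08), and its sign turned after centring on the median of all genes (log2 -0.04) and after scaling to the same sum (log2 -0.18). The 10 collagens that were not counted reached at most 0.276 FPKM in control and at most 0.514 in cKO. Among them were Col10a1 of growing cartilage, listed at 0 in control, Col17a1 of skin, Col24a1, and Col28a1, a collagen known from peripheral nerve, at 0.225 and 0.361 FPKM.

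**Figure D2:**
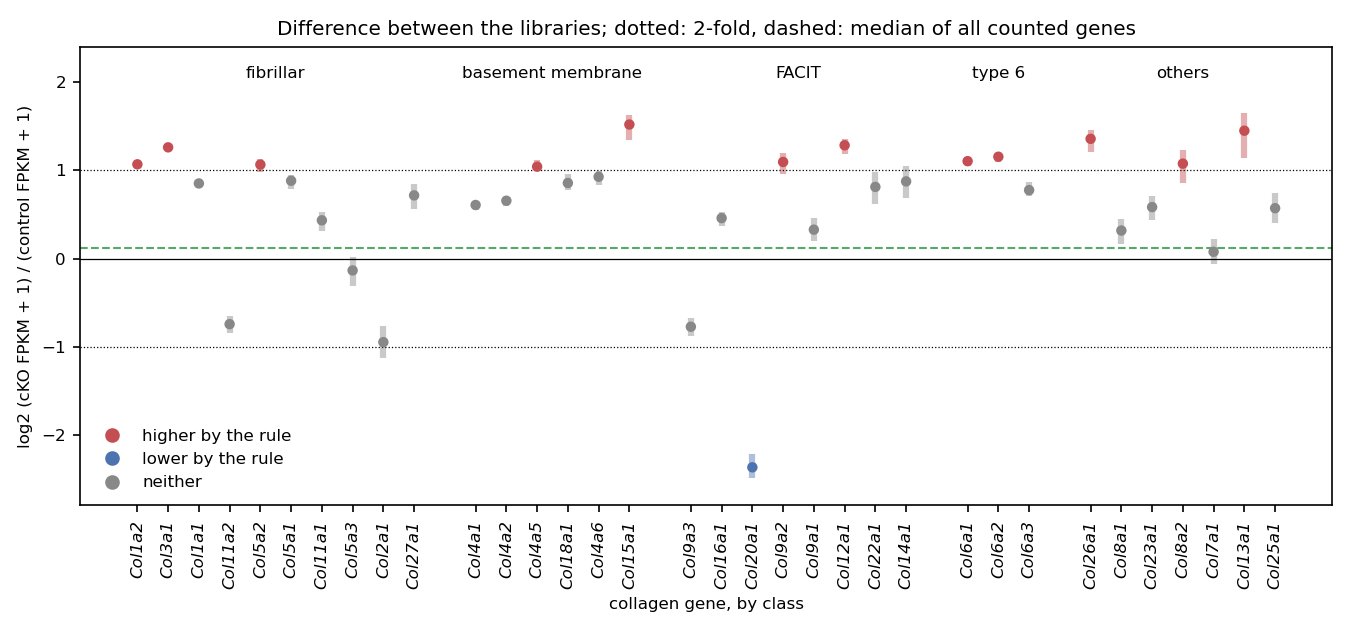
Log2 difference, cKO minus control on log2(FPKM + 1), of each counted collagen by class; bars span the range given by the deposited intervals, the dotted lines mark 2-fold and the dashed line the median of all counted genes (0.12). The 12 red points lie above the upper dotted line, and Col20a1 at -2.37 is the only point below the lower one on the deposited scale.

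Because FPKM is given per length, chains of 1 type can be compared within a library, and their ratio does not depend on how libraries are scaled. There were 12 such ratios between counted chains, set against the first chain of a type or the neighbouring gene. Between the libraries 9 had separate ranges when the interval bounds were used. No share was computed for pairs of other genes, and intervals alone were separate for 38.4% (cKO higher) and 22.5% (cKO lower) of all counted genes. In cKO the ratio lay outside its own range for Col4a5 over Col4a1, Col4a6 over Col4a5, Col6a3 over Col6a1 and Col9a2 over Col9a1. Col6a2 over Col6a1 was 0.973 in control and 1.01 in cKO, and Col4a2 over Col4a1 was 0.809 and 0.838, with overlapping ranges. Col4a5 over Col4a1 was 0.615 in control (range 0.601 to 0.668) and 0.837 in cKO (range 0.853 to 0.893, which leaves out the ratio itself). Col1a2 over Col1a1 was 1.29 in control (range 1.26 to 1.33) and in a range of 1.49 to 1.52 in cKO, above 1 in both although the type 1 molecule holds more Col1a1 than Col1a2 chains. The widest shifts were those of type 11, type 9 and type 5.

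Col11a2 over Col11a1 was 2.61 in control (range 2.34 to 2.83) and 1.10 in cKO (range 1.03 to 1.15). Col9a3 over Col9a1 was 2.83 in control and 1.29 in cKO (range 1.15 to 1.32), with separate ranges. Col9a2 over Col9a1 moved the other way, from 1.27 (range 1.07 to 1.36) to 2.19 (range 1.92 to 2.17). For type 9 the order of the chains thus changed between the libraries. Col5a3 over Col5a1 was 0.339 in control and 0.160 in cKO, and Col8a2 over Col8a1 was 0.467 and 0.858. Across types, Col3a1 over Col1a1 was 1.10 in control (range 1.07 to 1.14) and 1.46 in cKO (range 1.45 to 1.48).

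**Figure D3:**
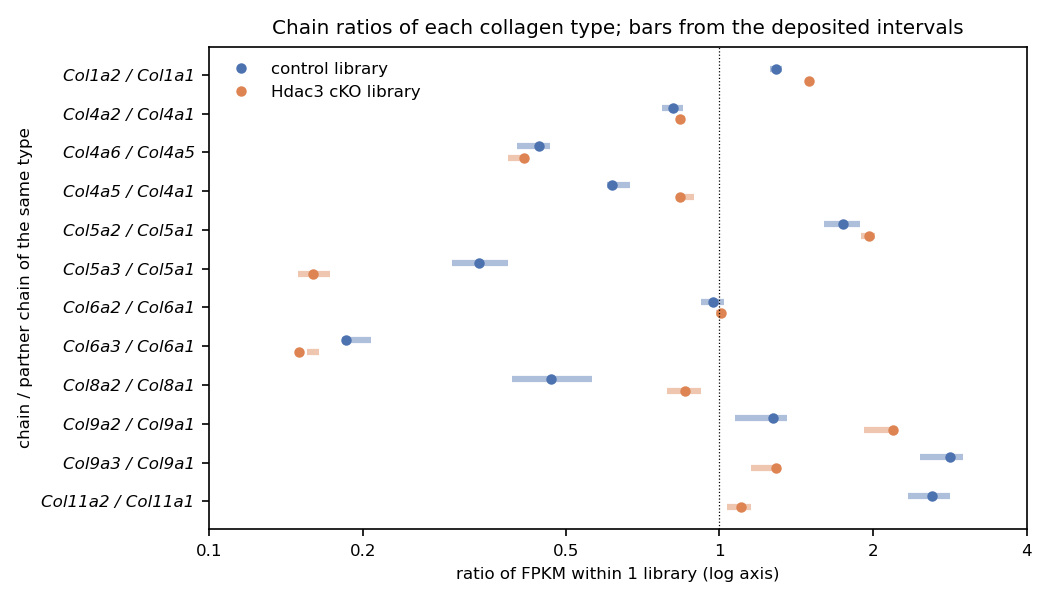
Ratio of the FPKM of a collagen chain to that of a partner chain of the same type (log axis) in the control library (blue) and the cKO library (orange); bars span the ratios given by the deposited interval bounds, and the dotted line marks equal levels. Col6a2 over Col6a1 lies at 1 in both libraries, while Col9a3 over Col9a1 and Col11a2 over Col11a1 lie above 2 in control only.

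Genes that make, cut and bind collagen were read as lists chosen for their roles. On the deposited scale their counts stand against 4.73% of all counted genes called higher and 4.51% called lower. These shares were 1.54% and 6.89% after scaling to the same sum, and 3.1% and 5.38% after centring on the median. Of 16 counted genes that modify collagen chains in the endoplasmic reticulum, 4 were higher and 0 were lower, at a median log2 difference of 0.44. With both libraries set to 1 sum the rule called 0 of them higher, at a median of 0.15, and centring on the median of all genes left 1. Serpinh1, the collagen-specific chaperone HSP47, was at 148.8 FPKM in control and at 314.4 in cKO (log2 1.07). P4ha2, a prolyl hydroxylase subunit, was at 17.3 and 38.9 FPKM (log2 1.12), and Fkbp10, a collagen foldase, at 30.7 and 66.7 (log2 1.10). P4hb, the most abundant of the list with Serpinh1 and a partner of many secreted proteins, was at 158.4 and 190.0 FPKM (log2 0.26). Crtap, named after its value was seen, made up the count of 4 at a log2 difference of 1.09.

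Of 12 counted genes that trim and crosslink collagen outside the cell, 2 were higher and 0 were lower, at a median of 0.78, and the same-sum scale left 0 of these calls. Pcolce, which speeds the removal of the C-terminal propeptide, was at 58.9 FPKM in control and at 148.6 in cKO (log2 1.32), and Adamts2, which removes the N-terminal propeptide, was at 10.7 and 24.3 (log2 1.11). Sparc, a collagen-binding matrix protein, was at 994.3 and 1900 FPKM (log2 0.93). Of 5 counted genes of collagen breakdown, 3 were higher: the gelatinase Mmp2, at 32.0 and 89.5 FPKM (log2 1.46), the uptake receptor Mrc2, at 18.2 and 43.99 (log2 1.23), and the protease Ctsk, named after its value was seen, at 26.4 and 56.6 (log2 1.07). Mmp14, which activates the product of Mmp2, was at 51.4 and 101.0 FPKM (log2 0.96). Scaling to the same sum left 1 gene of collagen breakdown higher, against 1.54% of all counted genes.

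Of 7 counted collagen receptors, 1 was higher and 0 were lower, at a median of 0.49. The same-sum scale left 0 calls among the receptors. Itga10, an integrin subunit of cartilage, was at 3.67 FPKM in control and at 8.61 in cKO (log2 1.04). Itgb1, the common beta subunit of these integrins, was at 123.2 and 135.5 FPKM (log2 0.14). The receptor kinases Ddr1 and Ddr2 went apart, Ddr1 at 143.4 and 111.9 FPKM (log2 -0.36) and Ddr2 at 9.72 and 20.4 (just under the 2-fold rule).

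Markers of several cell types moved with the collagens, read against the same shares of all genes. Of 11 markers of meningeal fibroblasts, 10 were higher and 0 lower in cKO, with a median log2 difference of 1.31, and none was at 0. On the same-sum scale 5 of them met the rule, at a median of 0.99, where 1.54% of all counted genes were called higher. They summed to 1198 FPKM in control and to 3007 in cKO, a ratio of 2.51, where the 44 collagens summed to 1687 and 3219, a ratio of 1.91. The most abundant were Igf2, at 678.6 and 1665 FPKM, and Dcn, a collagen-binding proteoglycan, at 138.2 and 428.8, and Slc22a6 differed most (log2 1.88). Among 10 mural cell markers 2 were higher, with a median of 0.85 and sums of 297.5 and 544.7 FPKM, and on the same-sum scale 0 met the rule. For 10 endothelial markers 0 met the rule in either direction, with a median of 0.36 and sums of 175.9 and 232.8 FPKM.

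All 10 oligodendrocyte markers were lower in cKO, at a median of -2.63, and Col20a1 at -2.37 lay within their range of -3.09 to -2.22. Of them only Opalin, named after its value was seen, lay above Col20a1. Of 8 precursor markers 4 were lower and 0 higher, at a median of -0.93 and a range of -2.50 to 0.13. Only Gpr17, at -2.50, lay below Col20a1 among these precursor markers. The counts of lower markers in these lists, 10 and 4, were equal on every scale tried. Of all counted genes, 4.51% were lower on the deposited scale and 6.89% on the same-sum scale. Of 9 astrocyte markers 2 were higher, at a median of 0.60, and on the same-sum scale 1 was (1.54% of all counted genes). Schwann cell markers were low, with 3 of 6 counted, 0 called and sums of 5.68 and 8.26 FPKM. Of 8 cartilage and tendon markers 4 were counted and 1 (Ucma) was higher (0 on the same-sum scale). Lect1, the most abundant of them, was at 26.2 FPKM in control and at 39.2 in cKO (log2 0.57). Acan, a defining proteoglycan of cartilage named after its value was seen, was not counted, at 0.19 FPKM in control and 0.07 in cKO. Of 9 markers of eye tissue and muscle 2 were counted and 1 (Crygs) was higher. The part of each cell type in the collagen values was not tested.

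**Figure D4:**
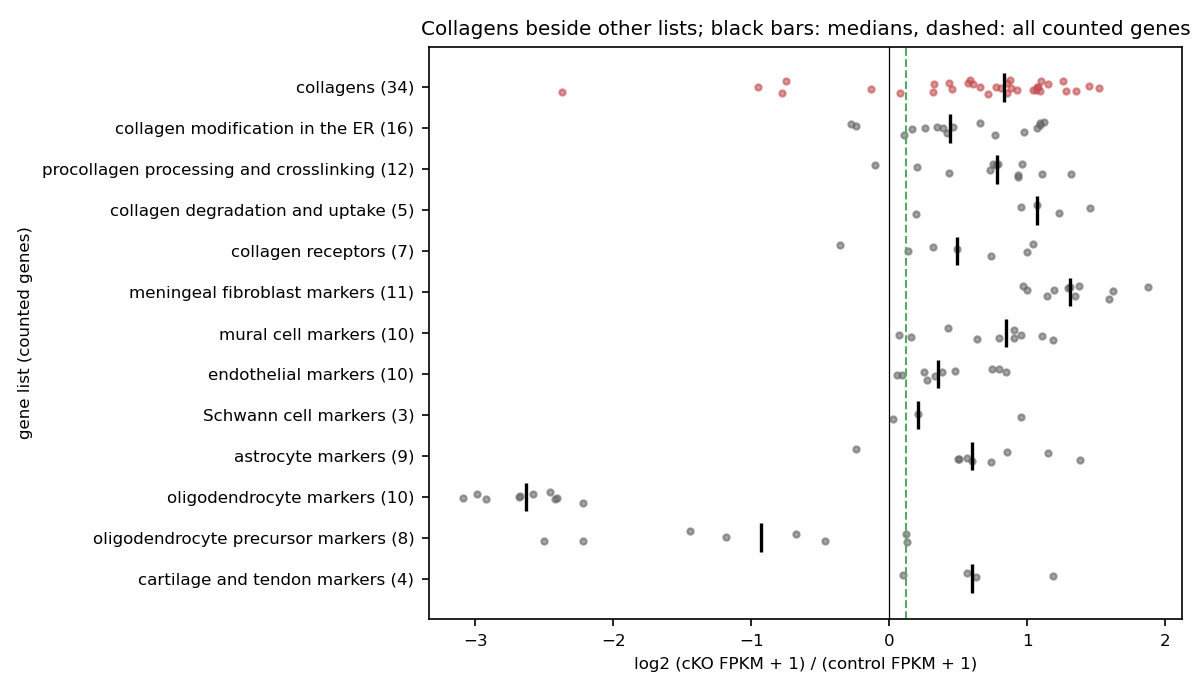
Log2 difference, cKO minus control on log2(FPKM + 1), of each counted gene in the collagen set (red) and in the other lists (grey, number of counted genes in parentheses). The markers of eye tissue and muscle are not shown. Black bars are list medians and the dashed line is the median of all counted genes. The collagen median of 0.83 lies between those of meningeal fibroblast markers (1.31) and endothelial markers (0.36). The nearest list medians are those of mural cell markers (0.85) and of procollagen processing and crosslinking genes (0.78). Col20a1 at -2.37 falls within the range of the oligodendrocyte markers, where only Opalin lies above it. Among the precursor markers only Gpr17 lies below it.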

How the data were processed

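RNA-seq of whole optic nerve gave 1 library per genotype. The authors deposited FPKM per gene with interval bounds and a status, per the file headers. CASAVA, TopHat, Cufflinks and the mm9 build are named, without versions or order, in the submitters' processing notes. For annotation, strand setting, read numbers and pooling the sources used here give nothing, so depth and counting precision are unknown.

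Entries (24460 per table) were matched by symbol, start-site group and locus. A symbol with several entries was represented by the one with the highest summed FPKM (0 collagens had several). Genes with status OK in both libraries that reached an FPKM of 1 in at least 1 library were counted. Differences are log2 of FPKM plus a pseudocount of 1, which understates changes of low genes. A call needed a 2-fold difference and separate deposited intervals. No p-value was computed. The calculation was tested on simulated data (Python 3.11.15, pandas 2.3.3). Members and lists were chosen with earlier results of these data known. Every counted collagen is named, and of other lists at most 4 genes, the 2 most abundant and the 2 with the largest difference, others being identified as such. Of the enzyme and marker symbols, 5 and 1 had no entry under the name searched. Coordinates are as deposited (mm9), and promoter windows are from RefSeq (GRCm38.p6). Other pseudocounts, scalings, minimum levels, entry choices and call rules were tried.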

Additional observations from a re-analysis of the deposited data

How the results depend on the processing

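No paired analysis was possible because each group has 1 library. Of 336 values of single collagens under an alternative, 293 kept the call, 23 lost one, 20 gained one and 0 called values changed sign. Settings that changed no call supply many of the 293. These are a minimum FPKM of 5 (30 values), and no minimum, summed entries and no interval rule (34 values each). The collagen counts of 12 higher and 1 lower became 6 and 2 after centring on the median of all counted genes, 3 and 4 after scaling to the same sum, and 22 and 4 with a 1.5-fold rule (16% and 8.85% of all genes). A pseudocount of 5 left 7 higher (1.99% of all genes), and the same upper quartile left 9 (3.77%). A pseudocount of 0.1 gave 14 higher (8.17%) and 2 lower (5.81%). Medians stayed above 0 in each class and setting. After scaling to the same sum the median log2 difference was 0.52 for all collagens, 0.47 for fibrillar, 0.57 for basement membrane, 0.33 for FACIT, 0.77 for type 6 and 0.37 for other collagens. Centring on the median gave 0.66 for fibrillar, 0.77 for basement membrane and 0.99 for type 6, and the same upper quartile gave 1.03 for type 6. With a pseudocount of 5 it was 0.65 for all, 0.59 for fibrillar, 0.79 for basement membrane and 0.40 for FACIT, and with 0.1 it was 0.99 for other collagens. Without a minimum FPKM it was 0.60 for all, 0.76 for basement membrane, 0.46 for FACIT and 0.45 for type 6. A minimum of 5 gave 0.46 for FACIT and 1.08 for other collagens. Changing the minimum changes which genes are counted (44 collagens without one, 30 with a minimum of 5). With 1 library a group and unknown depth, no difference could be set against the spread between animals.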

Other observations

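Several collagen genes are neighbours in the genome, within 1 Mb of each other in the deposited coordinates (mm9). Col9a3 and Col20a1, the counted FACIT genes with lower values in cKO, lie on chromosome 2 with 364.3 kb between them, at log2 differences of -0.77 and -2.37. Col3a1 and Col5a2 lie on chromosome 1 with 24.6 kb between them, at 1.26 and 1.07, both higher by the rule. On chromosome 10, Col6a2, Col6a1 and Col18a1 follow each other at 1.16, 1.11 and 0.86. Col9a1 and Col19a1 lie 4.94 kb apart on chromosome 1, where Col9a1 measured 22.2 FPKM in control against 28.1 in cKO and Col19a1, which was not counted, 0.049 against 0.033. Neighbours were picked by distance alone, and no share was computed for other genes.

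The rank of a level among all genes of a library does not depend on scaling. Col15a1 went from rank 7669 in control to rank 3334 in cKO, Col13a1 from 10996 to 6845, and Col12a1 from 7265 to 3608. Col20a1 went from rank 2201 to rank 9215, and Col9a3 from 1088 to 2144.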
